A study of Mus musculus with 6 samples.

Results

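The genes described here are 10 regulators of the BCL2 family, which were chosen by symbol from the 46078 genes of the striatal table because the transcript of 1 of them, Bax, was lower in each Shank3 transgenic (TG) mouse than in each wild-type (WT) mouse. The other 9 are Bak1, Bok, Bcl2, Bcl2l1, Mcl1, Bcl2l11, Bad, Bid and Bbc3, and all 10 were matched by Ensembl identifier to the GENCODE M21 annotation of GRCm38. The difference between genotypes therefore chose the set, and it is given for the members as a description. Counts of calls among the members stand beside the share over all genes, and neither they nor the differences are taken as evidence. All 10 members passed the filter on low values (a mean of at least 10), as did 17605 genes in all.

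Striatal RNA of 3 WT mice and 3 Shank3 TG mice was sequenced, with 1 library for each mouse. All were males of the C57BL/6J background aged 12 weeks, and the TG mice carried an EGFP-tagged Shank3 transgene, whose promoter is not named in the sources used here. A value is a normalized read count, the reads of a gene divided by the size factor of its library. Between 27689589 and 36647626 reads per library fell on genes, and each member had at least 146 reads in each library. Shank3, the overexpressed gene, had between 26044 and 29891 normalized read counts in the TG mice, against between 12918 and 13865 in the WT mice. All 9 markers of medium spiny neurons, the principal cells of this tissue, were well detected, the least abundant with a mean of 3780 normalized read counts. In TG replicate 1, the 8 choroid plexus markers summed to 15024 normalized read counts, against 321 and 1497 in the other TG libraries and between 272 and 615 in WT mice.

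The BCL2 family controls whether the outer membrane of a cell's mitochondria stays intact or is made permeable. Bax and Bak1 are the effectors that form pores there and release cytochrome c, and Bok is a related effector. Bcl2, Bcl2l1 (which encodes Bcl-xL) and Mcl1 hold the effectors in check. The BH3-only proteins, here Bcl2l11 (Bim), Bad, Bid and Bbc3 (Puma), sense stress and either block the protective members or activate the effectors. Much of this control acts on the proteins, by binding, cleavage or phosphorylation, and is not seen in transcript levels.

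The sequences before the transcription start are shown for the 2 classical effectors, because Bax was the member that was lower in TG mice and Bak1 was not. Both are the 250 bases upstream of the RefSeq start on the minus strand of GRCm38.p6, read toward the gene, at chr7:45466899-45467148 for Bax and chr17:27028628-27028877 for Bak1. Capitals mark the E-box (CACGTG) and the GC box (GGGCGG, or CCGCCC on the other strand), which were searched on both strands and do not overlap each other here.
Bax: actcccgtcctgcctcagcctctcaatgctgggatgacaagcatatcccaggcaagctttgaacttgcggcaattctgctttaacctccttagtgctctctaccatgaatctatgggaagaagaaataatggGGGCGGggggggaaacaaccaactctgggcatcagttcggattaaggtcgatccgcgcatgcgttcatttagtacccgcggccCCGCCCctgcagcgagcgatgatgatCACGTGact
Bak1: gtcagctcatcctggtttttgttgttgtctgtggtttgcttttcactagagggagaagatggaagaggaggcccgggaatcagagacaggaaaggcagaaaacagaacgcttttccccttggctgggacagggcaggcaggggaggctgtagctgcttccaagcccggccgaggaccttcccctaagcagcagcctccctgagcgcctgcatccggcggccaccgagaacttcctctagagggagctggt
The Bax window holds an E-box from 9 to 4 bases before the start and a GC box at 118 to 113 and at 35 to 30 bases before it, and the Bak1 window holds neither sequence. Over the 16 windows that RefSeq gives for the 10 members, an E-box was found in 2, those of Bax and of 1 start of Bbc3, and a GC box in 11. Among all 32851 windows of this length, 6.02% held the E-box and 32.7% the GC box. These are matches of letters and say nothing about which factors bind.

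Bax (ENSMUSG00000003873) lies on the minus strand of chromosome 7, from 45461697 to 45466898. It had 667, 659 and 624 normalized read counts in TG replicates 1, 2 and 3 and 801, 776 and 763 in WT replicates 1, 2 and 3. Each TG mouse was thus below each WT mouse, and the 2 groups were separated by a gap wider than the range within either. Mean Bax was 649.8 ± 22.6 (SD, n = 3) for the TG genotype and 780.1 ± 19.5 (SD, n = 3) for the WT genotype, so that the TG mean was 0.833 of the WT mean. The log2 fold change, TG minus WT on log2(normalized read count + 1), was -0.26 with a standard error (SE) of 0.06. Relative to the WT mean, Bax stood at -0.23, -0.24 and -0.32 on the log2 scale in the 3 TG libraries, while the WT libraries stayed between -0.03 and 0.04. Leaving out any 1 of the 6 mice gave values between -0.28 and -0.23. With all TG values under all WT values, this could not change the sign. In whole striatum, fewer cells that express a gene and less of its RNA per cell cannot be told apart.

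**Figure D1:**
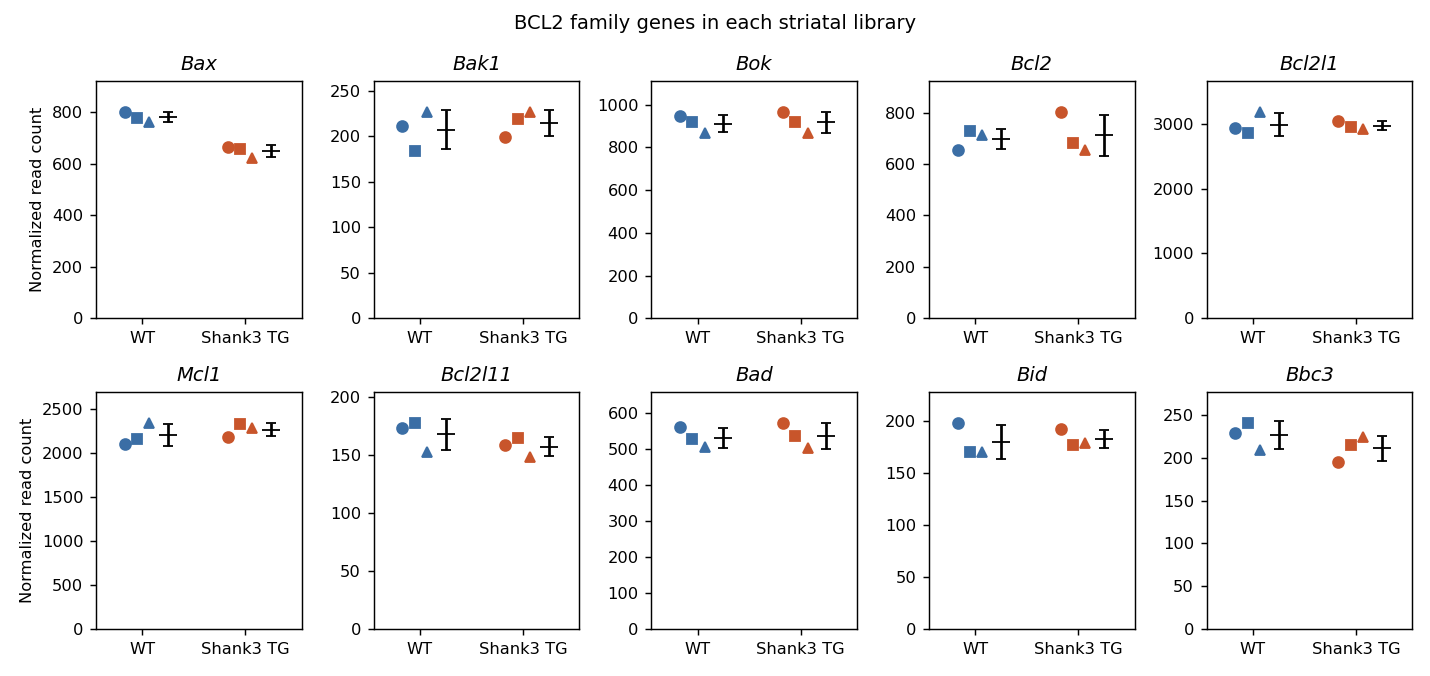
Normalized read counts (vertical axis, from 0) of the 10 BCL2 family genes in each library of WT mice (blue) and Shank3 TG mice (orange). Circles, squares and triangles are replicates 1, 2 and 3, which are different mice, and the black mark with its bar is the mean ± SD of 3 mice. In Bax the TG values, from 624 to 667, all lie under the WT values, from 763 to 801, and in the 9 other genes the groups overlap.

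Some other measures are set beside the Bax values here. The Bax transcript is rich in G and C, at 63.5% of its longest form, above 98.7% of the genes tested, whose median was 49.5%. The 137 other genes within 1 percentage point of that GC content had a median log2 fold change of -0.09, and their median stood at -0.01, -0.14 and -0.12 relative to the WT mean in TG replicates 1, 2 and 3. After correction for GC content within each library, the log2 fold change of Bax was -0.17 with a standard error of 0.06. The 6 microglial markers, among them Cx3cr1 and P2ry12, summed to between 9299.5 and 9894 normalized read counts in the TG mice, against between 9997 and 10469 in the WT mice, with 0 of 6 higher in TG mice. Their part in the Bax values was not tested. In the 7 other marker lists (medium spiny neurons, cortical excitatory neurons, astrocytes, oligodendrocytes, endothelial cells, choroid plexus and neuroblasts of the subventricular zone), the summed levels of the groups overlapped. A count to 1 side was not particular to microglia. Higher in TG mice were 0 of 6 neuroblast markers, 1 of 9 of medium spiny neurons and 8 of 8 of choroid plexus. The count was 4 of 6 for cortical excitatory neurons and 3 of 6 for astrocytes, oligodendrocytes and endothelial cells. Without TG replicate 1, the library with the choroid plexus markers, the log2 fold change of Bax was -0.28.

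The genes tested on either side of Bax had smaller differences. Ftl1, the ferritin light chain gene 1813 bases away, had a log2 fold change of -0.08 (SE 0.05), and Gys1, the glycogen synthase of muscle and brain, one of 0.045 (SE 0.08). Beyond them Ruvbl2, which encodes a helicase of chromatin remodelling complexes and lies 23601 bases away, had a log2 fold change of -0.12 (SE 0.06). It stood at 722, 704 and 659 in the TG mice, against 740.5, 760.3 and 766 in the WT mice. Ruvbl2 thus also did not overlap between the groups, where 5.05% of all genes tested were lower without overlap. On the other side, Dhdh, Nucb1 and Ppp1r15a had log2 fold changes of 0.085, 0.02 and -0.05, and their groups overlapped. By limma, each of the 6 neighbours had an adjusted P value of at least 0.971.

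The remaining effectors overlapped between genotypes. Bak1 (chromosome 17, 27019810 to 27029009) had 199, 219 and 227 normalized read counts in the TG mice, against 212, 184 and 227 in the WT mice. The estimate for Bak1 was 0.05 on the log2 scale (SE 0.11), and the 95% interval reached from -0.19 to 0.295. WT replicate 2 was the lowest library, and the highest value of each genotype was the same to within 1 read count. Bok (chromosome 1, 93685660 to 93695764) had 966, 919 and 866 normalized read counts in the TG mice, against 945, 918 and 869 in the WT mice. The WT values all lay within the range of the TG values, and the log2 fold change was 0.01 (SE 0.06), with a 95% interval from -0.13 to 0.15.

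Among the protective members, Bcl2l1 and Mcl1 were the most abundant and the most closely bounded. Bcl2l1 (chromosome 2, 152780668 to 152831728) had 3045, 2944 and 2921 normalized read counts in the TG mice, against 2929, 2850 and 3181 in the WT mice. The TG values all lay within the WT range, and the log2 fold change was -0.01 (SE 0.05), with a 95% interval from -0.12 to 0.11. Mcl1 (chromosome 3, 95658788 to 95663176), a short-lived protein in most cells, had 2177, 2321 and 2285 normalized read counts in the TG mice, against 2097, 2159 and 2341 in the WT mice. Here the TG values again fell inside the WT range, and the log2 fold change was 0.04 (SE 0.055, 95% interval from -0.08 to 0.16). Bcl2 (chromosome 1, 106538178 to 106714274), the founding member of the family, had 803, 681 and 653 normalized read counts in the TG mice, against 656, 729 and 713 in the WT mice. TG replicate 1, the library with the choroid plexus markers, was the highest of the 6, and the 2 other TG libraries lay under the median WT library. The log2 fold change of Bcl2 was 0.02 (SE 0.085) with all mice and -0.07 without TG replicate 1.

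The 4 BH3-only genes had lower normalized read counts than any protective member, and each overlapped between genotypes. Bad (chromosome 19, 6941861 to 6951899), which growth factor signaling holds inactive by phosphorylation, had 574, 537 and 502 normalized read counts in the TG mice, against 561, 527 and 506 in the WT mice. This gave Bad a log2 fold change of 0.02 (SE 0.08, 95% interval from -0.15 to 0.18). Bid (chromosome 6, 120891930 to 120916853), which caspase 8 cleaves to its active form, had 192, 176 and 178 in the TG mice, against 198, 170.2 and 169.8 in the WT mice. WT replicate 1 was the highest library for Bid, and the TG values lay within the WT range. Bcl2l11 (chromosome 2, 128126038 to 128162547) had 159, 164 and 148 normalized read counts in TG mice and 173, 178 and 152 in the WT group, which gives a log2 fold change of -0.09 (SE 0.11). Bbc3 (chromosome 7, 16308393 to 16318205), like Bax a classical target of p53, had 196, 215 and 224 in TG mice against 229, 241 and 209 in the WT group, which gives a log2 fold change of -0.10 (SE 0.10). In both genes WT replicate 3 fell among the TG values, and the intervals reached from -0.335 to 0.15 for Bcl2l11 and from -0.32 to 0.125 for Bbc3. Bbc3 had the highest GC content of the 10, at 65.2%, and its log2 fold change was 0.01 after the GC correction.

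**Figure D2:**
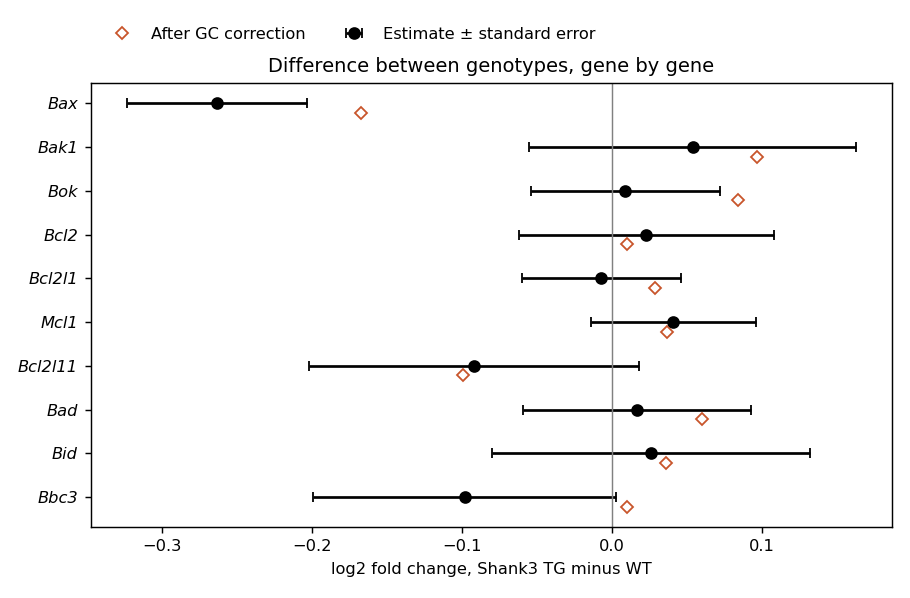
The log2 fold change of each BCL2 family gene (horizontal axis, Shank3 TG minus WT), with bars of 1 standard error from limma (black, n = 3 mice per genotype) and the estimate after correction for GC content (open diamonds). Bax stands at -0.26 before and -0.17 after the correction, and the other genes lie between -0.10 and 0.05 before it.

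Over the 10 members, the median log2 fold change was 0.01, against -0.002 over all genes tested, with 6 members higher and 4 lower in TG mice. That division was not stable. Without TG replicate 1, 2 members were higher and 8 lower (median -0.03), without WT replicate 1 the division was 5 and 5, and without WT replicate 2 or 3 it was 4 higher and 6 lower. After GC correction 8 members were higher and 2 lower. The groups did not overlap in 1 member, Bax, where 10.1% of all genes tested had no overlap in either direction and 5.05% were lower in TG mice without overlap. By limma, 0 of the 10 members had an adjusted P value under 0.05, and 0.00568% of all genes tested did, which is Shank3 alone. At an unadjusted P value under 0.05 stood 1 member, Bax, and 2.33% of all genes tested were lower at that level. Since Bax was chosen on this contrast, nothing is read from these counts. On the recovered reads, edgeR's quasi-likelihood test, limma-voom and DESeq2 without a prior also called 0 members. Over all 17605 genes they called 1, 1 and 7. DESeq2 with fold changes shrunken by a prior and an empirical null called 0 members with the filter on low values. That fit called 15 genes in all. Without the filter, 83 of the 29430 genes with a read in some library were called by this test, 1 of them a member, Bax. The study's methods name an empirical null from the R package fdrtool. Here the null was instead scaled to the central 75% of the statistics, so the study's test was not repeated.

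The spread between mice also differed within the family. Within genotypes, the pooled SD of Bax was 0.04 on the log2 scale, less than the 0.05 that counting reads alone gives at its depth. Among the genes tested, 9.7% had a smaller SD than Bax. The choice of Bax for groups that did not overlap favours a small SD, so nothing is read from this value. The widest spreads were those of Bak1, at 0.13 against a counting error of 0.10, and Bcl2, at 0.125 against 0.055. For Bid, Bbc3 and Bcl2l11, with 146 to 258 reads per library, the pooled SD of 0.10 in each was close to the counting error, between 0.10 and 0.11.

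Levels were compared between genes as normalized read counts per kb of exon. The choice of the genes did not use this order, but the Bax values that chose the set enter it. In WT mice the order ran from Bcl2l1 (651 ± 37.7, SD, n = 3) and Mcl1 (643 ± 37.2) through Bok (495 ± 21.1), Bax (495 ± 12.3), Bad (208 ± 10.9), Bbc3 (107 ± 7.64), Bak1 (86.2 ± 8.96), Bcl2 (76.3 ± 4.18) and Bid (50.5 ± 4.55) to Bcl2l11 (20.9 ± 1.69). Neighbours in this order could not be told apart in 3 places, namely Bcl2l1 and Mcl1, Bok and Bax, and Bak1 and Bcl2, where the WT values per kb overlapped. The ratio of Bcl2l1 to Mcl1 within a library was between 0.98 and 1.04 in WT mice, and that of Bok to Bax between 0.98 and 1.01. In the other steps the WT values did not overlap, but the step from Bbc3 to Bak1 was narrow. Their ratio within a WT library was between 1.04 and 1.48, and their values overlapped in TG mice. Bax per kb was between 1.89 and 2.45 times Bad over the 6 libraries. With the longest transcript as the length in place of all exons, Bax moved to the second place and 5 of the 10 members kept theirs. With coding length, Bcl2 moved from the eighth to the fifth place, above Bad, Bbc3 and Bak1, and 6 members kept theirs, as did 6 without WT replicate 1, so the order depends on the lengths and mice used.

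**Figure D3:**
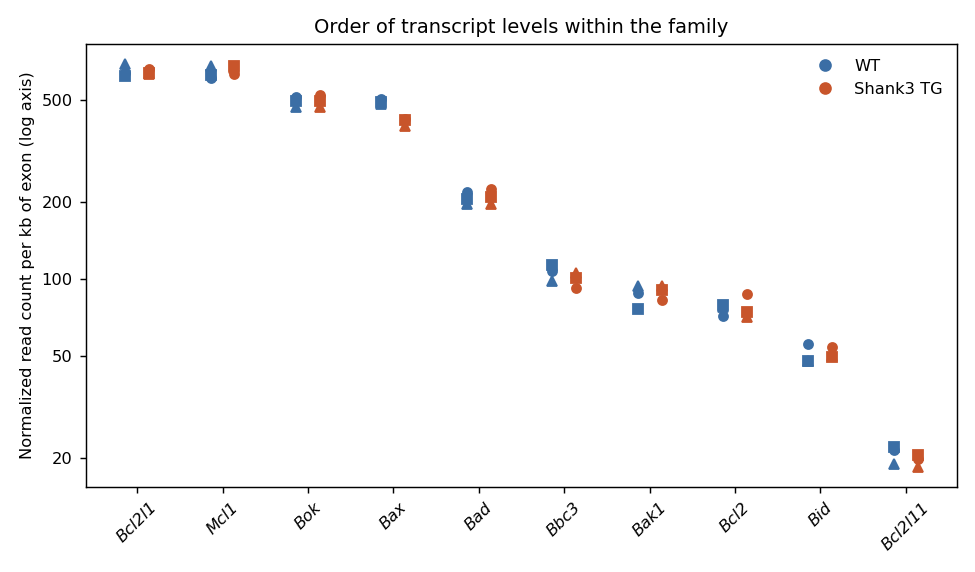
Normalized read count per kb of exon (vertical log axis) of the 10 genes in each WT library (blue) and Shank3 TG library (orange), ordered by the WT mean; symbols mark replicates 1, 2 and 3. Levels run from 651 for Bcl2l1 to 20.9 for Bcl2l11 in WT mice. Bax alone shows TG values clear of the WT values, which is the difference that chose the set.

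Ratios of 2 genes within a library do not depend on how the library was scaled. Bax per Bok, both per kb, was between 0.806 and 0.842 in the TG mice, against between 0.987 and 1.025 in the WT mice. Bax per Bcl2l1 was between 0.622 and 0.651 in the TG mice, against between 0.698 and 0.796 in the WT mice. Against Mcl1 the ratio of Bax was between 0.592 and 0.664 in the TG mice, against between 0.707 and 0.829 in the WT mice, and against Bcl2 between 4.82 and 5.62 in the TG mice, against between 6.19 and 7.10 in the WT mice. None of these ranges overlapped between genotypes, and the same was true of Bax against Bak1 by a small margin, with at most 5.115 in TG mice and at least 5.137 in WT mice. All of them carry the Bax values that chose the set. The ratio of Bcl2l1 to Mcl1, which holds no Bax, was between 0.945 and 1.043 in the TG mice, against between 0.984 and 1.041 in the WT mice. Of the summed level per kb of the 10 members, the 3 effectors made up between 35.48% and 36.69% in the TG mice, against between 36.60% and 39.11% in the WT mice. The 3 protective members made up between 49.42% and 50.84% in the TG mice, against between 46.64% and 50.75% in the WT mice. The 4 BH3-only members made up between 13.68% and 13.89% in the TG mice, against between 12.65% and 14.25% in the WT mice. The groups overlapped in all 3 shares, and WT replicate 3 was the WT library nearest to the TG mice in the first 2.

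Some members share exon bases with another gene, and the library kit does not mark the strand of the RNA. Bak1 shares 437 of its 2407 exon bases with Ggnbp1, Bad shares 524 of 2558 with Gpr137, and Bid shares 628 of 3550 with Bcl2l13, itself a relative of the family, each on the opposite strand. Ggnbp1, Gpr137 and Bcl2l13 had log2 fold changes of -0.03, -0.07 and 0.02, and their values overlapped between genotypes. An antisense gene within Bcl2, D630008O14Rik, was listed at 0 in 5 of the 6 libraries. How reads in shared exons were counted is not given in the sources used here, so the levels of these genes are less certain than those of Bok, Bcl2l1 and Mcl1. Bax shares 192 of its 1576 exon bases with Gm45808, a gene model on the same strand. Gm45808 is not among the 46078 genes listed, so no values can be given for it. How reads in the shared bases were counted is not given in the sources used here.

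The other genes of the pathway were taken in 4 lists, none of which had a gene called by limma at an adjusted P value under 0.05, or by edgeR, limma-voom or DESeq2 without a prior. Of 18 further genes listed as members or partners of the BCL2 family, 11 were tested. In TG mice 5 were higher and 6 lower, with a median log2 fold change of -0.05. The most abundant were Bnip3l, a mitophagy receptor, with log2 fold change 0.03 (SE 0.05), and the protective Bcl2l2 with 0.04 (SE 0.05). The largest differences among genes with a mean of at least 100 were those of the BH3-only gene Bmf, at -0.16 (SE 0.13), and of Bnip3, at 0.11 (SE 0.06). The division was 3 higher and 8 lower after GC correction, and the median was above 0 without TG replicate 2 (0.006) and without WT replicate 3 (0.003). By limma 0 of the 11 genes passed an unadjusted P value of 0.05, where 1.98% of all genes tested were higher and 2.33% lower at that level, and 0 were free of overlap, against 10.1% of all genes tested. With so few genes, counts of 0 are near those shares.

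Of 12 genes listed as mitochondrial partners of Bax and Bak1, 11 were tested, 8 higher and 3 lower, with a median of 0.03. The list was drawn broadly and also held Tmbim6, Xrcc6 and Faim2, so its counts are not those of a strict class. The voltage-dependent anion channel Vdac1 had between 13365 and 13639 normalized read counts in TG mice and between 13100 and 13235 in the WT group, which gives a log2 fold change of 0.04 (SE 0.04). Dnm1l, the GTPase of mitochondrial fission, had between 7262 and 7580 in TG mice against between 6880 and 7085 in the WT group, which gives a log2 fold change of 0.08 (SE 0.04). Vdac2, which holds Bak1 at the membrane, had one of 0.08 (SE 0.05) with overlap between the groups, and Faim2, a neuronal inhibitor of Fas signaling, one of 0.03. The groups were free of overlap in 4 genes, all higher in TG mice, where 5.06% of all genes tested were higher without overlap. These were Vdac1, Dnm1l, Vdac3 and Mtch2, the last 2 named after their values were seen. The differences were small, at most 0.08 on the log2 scale, and 0 genes passed an unadjusted P value of 0.05 by limma.

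Of 20 genes listed under the apoptosome, the caspases and their inhibitors, all 20 were tested, 10 higher and 10 lower, with a median of -0.005. This list also held Parp1, Aifm1 and Endog. The caspase inhibitors Birc6 and Xiap were the most abundant, with log2 fold changes of 0.05 and 0.02 (SE 0.05 in each). Casp6 had -0.16 (SE 0.18), where TG replicate 2, at 84.3 normalized read counts, stood apart from the 5 other libraries, between 130.5 and 141. The mitochondrial nuclease gene Endog had -0.15 (SE 0.13). The groups were free of overlap in 1 gene, Birc5, named after its values were seen, at between 33.1 and 38.2 normalized read counts in the TG mice, against between 39.3 and 45.8 in the WT mice, and 0 genes passed an unadjusted P value of 0.05 by limma. This 1 gene of 20 is no more than the 5.05% of all genes tested that were lower without overlap. Without TG replicate 3, 5 genes of the list were higher and 15 lower, with a median of -0.035.

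The fourth list held p53 (Trp53) and 19 of its targets and partners, and all 20 genes were tested, 13 higher and 7 lower, with a median of 0.05. Zmat3, an RNA-binding target of p53, had 3611, 3734 and 3931 normalized read counts in TG mice and 3389, 3512 and 3541 in the WT group, which gives a log2 fold change of 0.11 (SE 0.05). Trp53inp1, named after its values were seen, had 657, 676 and 656 in TG mice against 542, 616 and 611 in the WT group, which gives a log2 fold change of 0.17 (SE 0.07). In both genes each TG mouse was above each WT mouse, where 5.06% of all genes tested were higher without overlap. Zmat3 and Trp53inp1 were the 2 genes of the list under an unadjusted P value of 0.05 (0.0446 and 0.0331 by limma, adjusted 0.971 in both), where 1.98% of all genes tested were higher at that level. Mdm4, an inhibitor of p53, had a log2 fold change of -0.03 (SE 0.08), Btg2 one of -0.17 (SE 0.16) and Gadd45a one of 0.24 (SE 0.215). Gadd45a varied between 88.1 and 184 normalized read counts among the WT mice alone, a range that held all TG values.

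**Figure D4:**
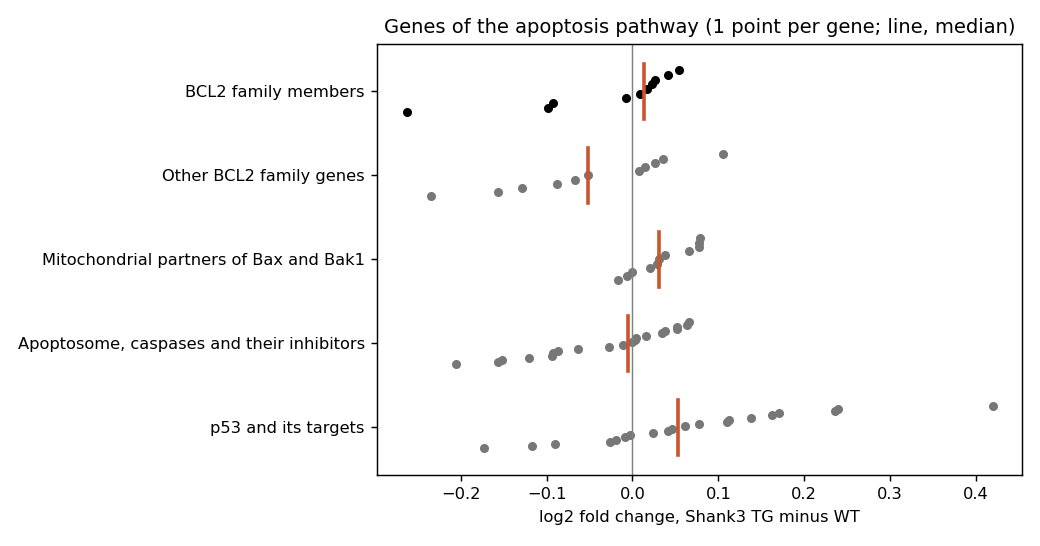
The log2 fold change (horizontal axis, Shank3 TG minus WT) of each tested gene in the BCL2 family set (black) and in 4 other lists of apoptosis genes (grey), with the median of each list as an orange line; vertical offsets only separate the points. The medians lie between -0.05 and 0.05, and Bax, at -0.26, is the lowest point of its set.

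The genes whose values were most like those of Bax were sought among the 12831 others with a mean of at least 100, by the root mean square difference of the log2 values over the 6 libraries, each gene centred on its own mean. The nearest were Kcne1l (0.03), Cdc42ep1, an effector of the GTPase Cdc42 (0.04), Polr2i, a subunit of RNA polymerase II (0.04), Notch1, the receptor (0.04), and Btbd17 (0.05), where the median over the genes was 0.16. Notch1 had 1105, 1033 and 957 normalized read counts in the TG mice, against 1215, 1209 and 1217 in the WT mice, and Polr2i had 292, 284 and 273 in the TG mice, against 354, 350 and 314 in the WT mice. Each of the 5 was lower in each TG mouse than in each WT mouse, as a gene near Bax on this measure must nearly be, and they share the same 6 libraries.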

How the data were processed

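Striatal RNA-seq of 3 WT mice and 3 Shank3 TG mice was used, with groups from the sample labels. Per the paper's methods and the submitters' processing notes, the authors trimmed reads with Trimmomatic 0.35, aligned them with TopHat2 2.1.0 (GRCm38), obtained read counts from HTSeq and divided these by DESeq2 size factors. The deposited signal is this normalized read count per gene and library. The strand setting and annotation release are not given in the sources used here. Reads were recovered by dividing by the smallest value above 0 (100% of values whole within 0.01 reads).

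The main test was limma 3.58.1 (trend option) on log2(value + 1). It took in 17605 genes, those whose mean reached 10, and P values were adjusted over all of them by the Benjamini-Hochberg method. edgeR 4.0.16, DESeq2 1.42.0 and limma-voom (R 4.3.3) used the recovered reads. Only the limma and edgeR fits were also run on simulated data, and no result of that run is used here. Exon lengths and GC content came from GENCODE M21, and promoters from RefSeq (GRCm38.p6).

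The members, lists and tests were chosen with earlier results of these data known. Named genes are the members, from each other list the 2 most abundant and the 2 that differed most, with a mean of at least 100, genes that overlap members, 3 neighbours of Bax on each side and the 5 nearest profiles. The numbers of the mice pair nothing in the labels, and deviations of same-numbered mice correlated at 0.05, 0.02 and 0.09.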

Additional observations from a re-analysis of the deposited data

How the results depend on the processing

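Bax was lower in TG mice under all 20 alternative settings of the fit, with log2 fold changes between -0.28 and -0.17. The set was chosen because Bax was lower in each TG mouse than in each WT mouse. Leaving out a mouse or changing the pseudocount or filter of the limma fit therefore could not change this sign, and it is not taken as evidence. It was -0.169 under DESeq2 with a prior and an empirical null, -0.17 under the same test without a filter (added after seeing the data) and -0.167 after GC correction, where Bok moved to 0.084 and Bbc3 to 0.01. The prior shrinks fold changes by construction. The number of members called was 0 in each setting except the prior and empirical null without a filter, with 1, Bax. Over all 17605 genes, 1 was called, and 7 by DESeq2 and 15 with the prior and empirical null. Over the 29430 genes with a read, 83 were called with these and no filter, and 5 by limma without a filter. The count was 4 at an adjusted P value under 0.1. It was 1 to 2 when 1 mouse was left out, with 2 without TG replicate 2 or 3. With the replicate number as a block, 1 gene and 0 members were called. Since TG replicate 1 correlated best with WT replicate 2, the numbers are not shown to pair mice. With each mouse left out, the median of the 10 members lay between -0.03 and 0.024, the lowest without TG replicate 1. Of the 10 members, 5 kept their place by level with longest transcripts, 6 with coding length and between 6 and 10 with each WT mouse left out. The calls of the 4 other lists stayed at 0. The causes were not tested. With 3 mice per genotype and at most 258 reads per library, the intervals of Bid, Bbc3 and Bcl2l11 hold differences of up to 0.262, -0.321 and -0.335 on the log2 scale.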

Other observations

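Among the BCL2 family genes outside the 10, Hrk, a BH3-only gene known for its expression in neurons and named after its values were seen, had more reads than any of the 4 BH3-only members. Its values were 1465, 1723 and 1758 normalized read counts in the TG mice, against 1846, 1648 and 1751 in the WT mice, a difference of -0.09 on the log2 scale (SE 0.075) with overlap between the groups. Bad, the most abundant BH3-only gene of the 10 members, had between 502 and 574. At the other end, Bcl2l10 and Bcl2l14 had 4 reads each over the 6 libraries, Bik had 11, and the near-identical copies Bcl2a1a, Bcl2a1b and Bcl2a1d had 16, 11 and 2, whose division between the copies is uncertain. Bcl2a1c was listed at 0 in every library. Apart from Hrk and Bad, none of these genes entered the comparison between genotypes.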
